A study of Mus musculus with 8 samples.

Results

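The nuclear genes of the mitochondrial respiratory chain and the ATP synthase were followed from meiotic spermatocytes to haploid spermatids of Sam68 knockout mice. Members were the gene models whose symbol follows the naming of the subunit families of complexes I to IV and the ATP synthase. These were the lettered and numbered Nduf and Cox subunits, Sdh, Uqcr and Atp5, without genes named as assembly factors. Cycs and Cyct, the 2 cytochrome c genes, were added. This gave 84 of the 56324 gene models in the deposited table. They were 37 of complex I, 4 of complex II, 8 of complex III, 2 cytochromes c, 16 of complex IV and 17 of the ATP synthase. The 17 include Atp5s and Atp5sl, which are relatives named for the synthase. The rule uses names and no measured value, but it was written with earlier results of these data known.

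The respiratory chain passes electrons from NADH and succinate through complexes I to III and cytochrome c to complex IV, which reduces oxygen. Complexes I, III and IV pump protons, and the ATP synthase uses the resulting gradient to make ATP. Most subunits are encoded in the nucleus and a few in mitochondrial DNA, and male germ cells express their own forms of cytochrome c and of several small complex IV subunits.

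The libraries were RNA-seq of polyadenylated RNA from C57BL/6 males, 12 weeks old, all with the genotype Sam68 -/-. Each cell type had 4 libraries, and the cells had been separated by sedimentation at unit gravity. Every library is labelled with this genotype, so no genotypes were compared. The labels do not tell whether different animals gave the libraries of a cell type. The p-values therefore measure the spread between these libraries, part or all of which may be technical.

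Libraries held 49000266 to 93975960 reads. Khdrbs1, the gene of Sam68, had 3421 to 4985 normalized counts in spermatocytes and 625 to 1129 in spermatids, and without wild-type libraries here these levels do not check the genotype. All 10 spermatid markers were called higher in spermatids and 5 of 10 spermatocyte markers lower, so the fractions matched their labels in those markers. All 17 Sertoli cell markers and all 6 matched Leydig cell markers were lower in spermatids: averaged over the Sertoli list, the log2 level was 9.12 to 11.32 in spermatocytes, highest in library 3, and 6.17 to 7.28 in spermatids. Macrophage and blood markers went the other way, from 4.17 to 4.48 in spermatocytes, where Hba-a1 was at 0 in every library, and from 6.71 to 7.96 in spermatids. Peritubular myoid markers did so too, with 6.41 to 7.40 against 8.59 to 9.32. Of 8 spermatogonia markers 3 were called higher in spermatids, near the share of 32.5% over all models tested. Among the spermatocyte libraries, library 3 stood apart by its Sertoli cell markers, and library 4 by the lowest mean log2 level of the spermatocyte markers, 13.37 against 14.04 to 14.26 in the others. The part of these cells in the results below was not tested. In such bulk samples fewer cells of a type and less RNA per cell cannot be told apart.

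Promoters are shown for 5 members that recur below: the cytochrome c pair and the complex IV subunit Cox6b2, to set germ cell forms beside a broadly expressed one, and Ndufa11 and Atp5k, which were lower in spermatids and carry the letters of a nuclear respiratory factor site. RefSeq promoter windows on GRCm38.p6, from 250 bases before to 50 after the start site, were found for 71 of the 84 members, 3 of them through a synonym. In the windows below, 5′ to 3′ on the gene's strand, capitals mark 2 searched motifs: the NRF1 letters GCATGCGC and the cyclic AMP response element TGACGTCA. The windows are Cyct at chr2:76360404-76360703 on the minus strand, Cycs at chr6:50566520-50566819 on the minus strand, Cox6b2 at chr7:4753045-4753344 on the minus strand, Ndufa11 at chr17:56717512-56717811 on the plus strand and Atp5k at chr5:108434350-108434649 on the minus strand.
Cyct: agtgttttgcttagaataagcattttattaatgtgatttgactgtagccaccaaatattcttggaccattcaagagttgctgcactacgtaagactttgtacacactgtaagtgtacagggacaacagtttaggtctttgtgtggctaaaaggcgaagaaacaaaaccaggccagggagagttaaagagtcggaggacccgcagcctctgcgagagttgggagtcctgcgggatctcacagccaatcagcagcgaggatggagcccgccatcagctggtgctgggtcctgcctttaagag
Cycs: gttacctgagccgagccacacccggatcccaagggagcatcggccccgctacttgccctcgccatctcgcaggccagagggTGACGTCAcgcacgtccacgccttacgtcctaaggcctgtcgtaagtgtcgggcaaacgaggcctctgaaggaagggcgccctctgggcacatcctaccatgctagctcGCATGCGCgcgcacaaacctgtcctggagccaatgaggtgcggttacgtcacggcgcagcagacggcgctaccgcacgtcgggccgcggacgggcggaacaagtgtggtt
Cox6b2: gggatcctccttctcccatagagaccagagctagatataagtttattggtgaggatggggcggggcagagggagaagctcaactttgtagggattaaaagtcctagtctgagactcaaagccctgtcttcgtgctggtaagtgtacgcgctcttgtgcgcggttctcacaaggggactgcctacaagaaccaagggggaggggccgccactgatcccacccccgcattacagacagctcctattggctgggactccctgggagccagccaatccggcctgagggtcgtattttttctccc
Ndufa11: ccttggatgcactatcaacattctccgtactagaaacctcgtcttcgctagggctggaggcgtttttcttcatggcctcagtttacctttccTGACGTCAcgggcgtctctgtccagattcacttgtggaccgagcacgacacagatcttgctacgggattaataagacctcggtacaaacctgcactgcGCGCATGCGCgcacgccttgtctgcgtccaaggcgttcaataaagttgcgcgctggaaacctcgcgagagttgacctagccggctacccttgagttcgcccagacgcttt
Atp5k: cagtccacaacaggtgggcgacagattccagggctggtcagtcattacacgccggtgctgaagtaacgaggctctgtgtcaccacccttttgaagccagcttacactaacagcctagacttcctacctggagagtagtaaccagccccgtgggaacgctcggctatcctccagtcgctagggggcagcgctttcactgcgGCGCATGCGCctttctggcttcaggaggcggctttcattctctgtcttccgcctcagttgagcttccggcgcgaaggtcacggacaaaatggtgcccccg

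The window of Cycs holds a TGACGTCA that begins at -169 and the NRF1 letters at -60, relative to the start site. Ndufa11 holds the same pair of motifs, at -158 and at -60, and in Ndufa11 and Atp5k the NRF1 letters lie on both strands and overlap in a palindrome. The windows of Cyct and Cox6b2 hold neither motif, and neither holds the ETS letters CCGGAAGT. Searched on both strands, the NRF1 letters occurred in 11 of 71 members with a window (15.5%), against 824 of 27025 genes in the whole promoter table (3.05%). TGACGTCA occurred in 5 members (7.04%) against 2.03% of genes, and CCGGAAGT in 5 members (7.04%) against 4.31%. The NRF1 letters were in 2 of the 11 members called lower that have a window, in 8 of the 58 not called, and in Atp5l, the 1 member called higher that has a window. A match describes these letters and is no evidence that a factor binds there.

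Most respiratory chain genes were not called different between the 2 cell types. Of the 84 members, 83 reached 10 normalized counts in 4 or more libraries and were tested with limma on log2(normalized count + 1). A member was called where the Benjamini-Hochberg adjusted p over all 28735 models tested was below 0.05 and the log2 fold change was at least 1 in size. In spermatids 15 members were called lower (18.1%) and 2 higher (2.41%), while 66 were not called. Over all models tested, 29.8% were called lower and 32.5% higher. Over the 18497 tested models with a symbol, which every member has, 21.1% were called lower and 35.6% higher. The members' log2 fold changes, spermatids over spermatocytes, had a median of -0.28 and ran from -2.61 to 2.80, against a median of -0.01 over all models and 0.25 over models with a symbol. In 43 members the change was under 0.5 in size. The groups did not overlap for 26 members lower in spermatids, where the share over all models was 32.2%, and for 9 members higher, where it was 34.2%. Cox6a2 passed the filter only through its 4 spermatid libraries and so had to differ, and Cox7a1 passed it with 3 spermatocyte libraries and 1 spermatid library. Without these 2 genes 14 members were lower and 1 higher. Without spermatocyte libraries 3 and 4, 15 members were lower, 14 of them shared with the 15 above, and 3 higher. Over all models 29.4% were then lower and 32.7% higher. The untested member was Cox8b, with reads in 1 spermatid library only.

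**Figure D1:**
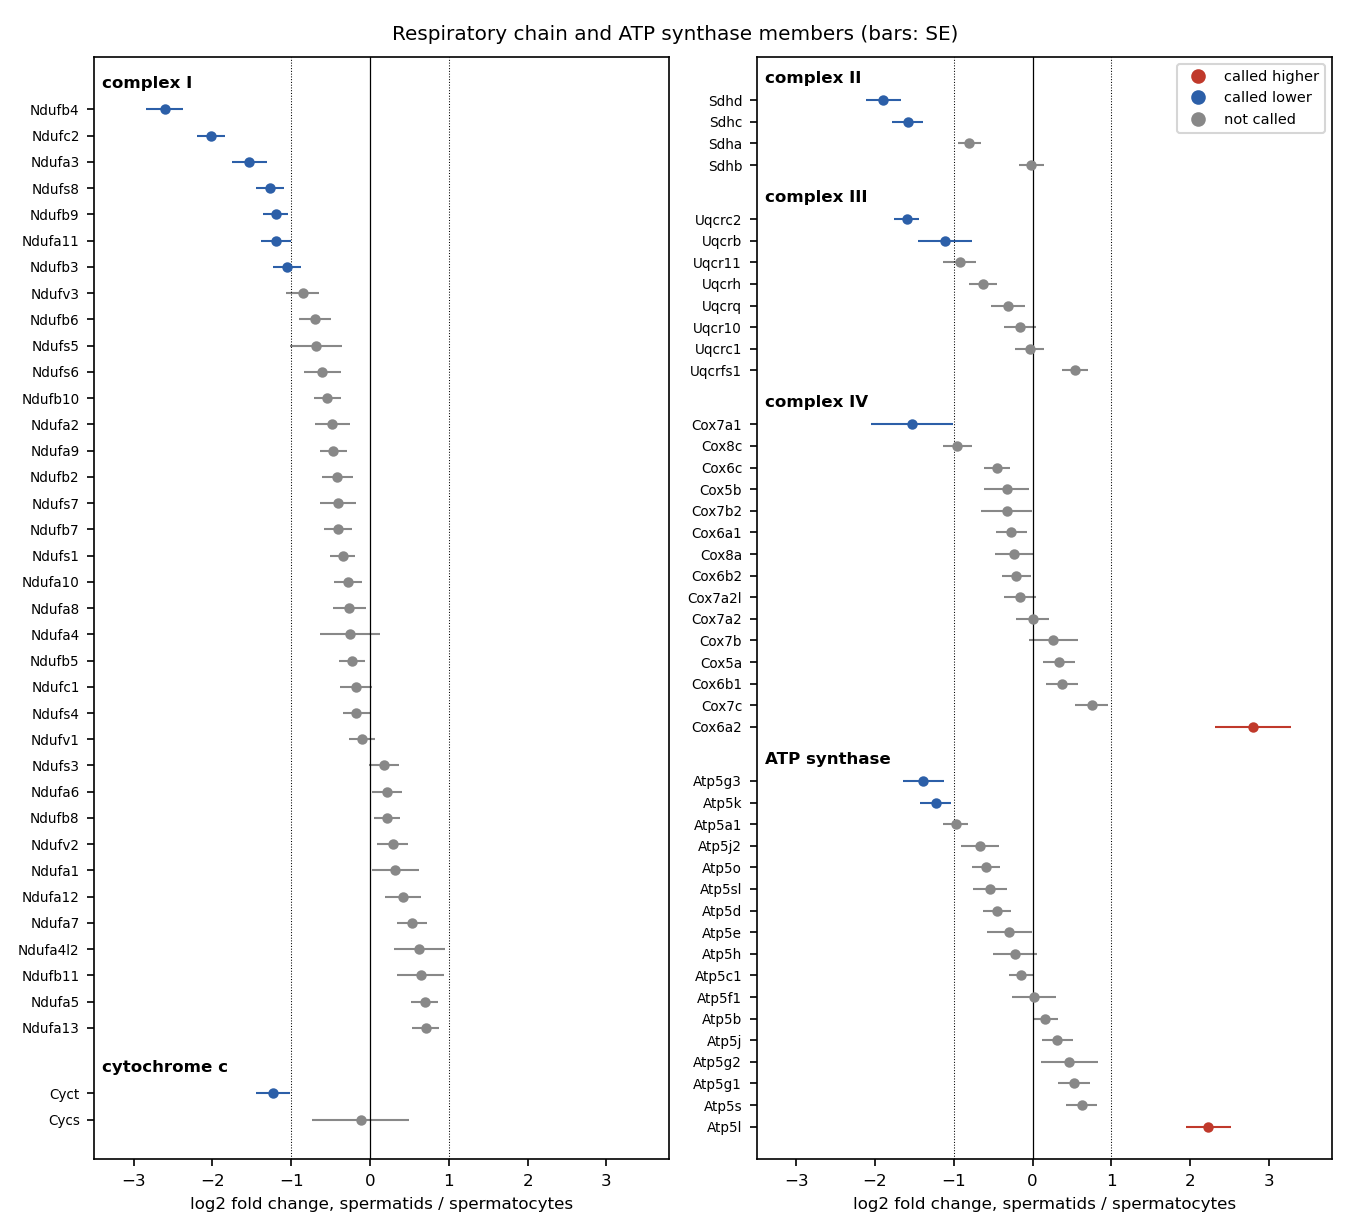
Log2 fold change of the tested members, except 1 that is not shown, spermatids over spermatocytes, with its standard error, grouped by complex. Dotted lines mark a size of 1; the 15 members called lower reach down to -2.61 (Ndufb4) and the 2 called higher are Atp5l and Cox6a2.

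Reads of the members together were 0.758% to 0.883% of all reads in spermatocytes and 0.438% to 0.544% in spermatids, and these ranges do not overlap. Scaling the libraries to equal totals moved the median of all models to -0.44 and that of the members to -0.72. Of the 83 tested members 27 were then called lower, the 15 among them, and 2 higher, beside 37.4% and 27.8% of all models. Quantile scaling also gave 27 of the 83 lower and 2 higher, beside 35.9% and 29.3% of all models. Under both scalings 12 members of complex I, 4 of complex III, 2 of complex IV and 5 of the ATP synthase were lower.

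Complex I, the NADH dehydrogenase that feeds most electrons into the chain, had 7 of 37 members lower (18.9%) and none higher. The shares over all models were 29.8% and 32.5%. The complex I members had a median log2 fold change of -0.35. The 7 were Ndufb4, Ndufc2, Ndufa3, Ndufs8, Ndufb9, Ndufa11 and Ndufb3. All but Ndufs8 are supernumerary subunits, which surround the catalytic core. Of 7 core subunits 1 was lower, and of 29 supernumerary ones 6. Grouped by name, the 29 include Ndufa4, now counted with complex IV, and the 37 also its relative Ndufa4l2. Neither is in the complex IV counts below.

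Ndufb4, a supernumerary subunit of the membrane arm (chr16:37647602-37654369), had 737, 721, 576 and 481 normalized counts in the 4 spermatocyte libraries and 119, 98.1, 102 and 87.1 in the spermatid libraries. Every spermatid library lay far below every spermatocyte library. The log2 fold change was -2.61 ± 0.24 (SE), with an adjusted p of 9.1e-07.

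Ndufc2, another membrane arm subunit (chr7:97400003-97407799), had 2545, 2689, 2688 and 2460 normalized counts in spermatocytes and 812, 631, 560 and 582 in spermatids. The spermatocyte libraries were close to each other and all above the spermatids, and the log2 fold change was -2.02 ± 0.18 (SE; adjusted p = 6.7e-07). A processed pseudogene, Gm16053, overlaps it on the same strand. Ndufs8, an iron-sulfur subunit of the catalytic core, fell from 1412 to 1773 normalized counts down to 570 to 745, a log2 fold change of -1.27 ± 0.18 (SE). Ndufa3 had a log2 fold change of -1.53, Ndufb9 of -1.20, Ndufa11 of -1.19 and Ndufb3 of -1.05. Ndufb9 is overlapped by Gm49356 on the same strand and Ndufa11 by Vmac on the opposite strand. Ndufb3, which had the smallest fall of the 7, was not called with TMM scaling (-0.92) or without spermatid library 1 (-0.99).

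None of the other 6 core subunits was called. Ndufv2, an iron-sulfur subunit of the NADH-binding module with the highest count in complex I, had 18848, 18108, 14830 and 10962 normalized counts in spermatocytes and 16758, 20433, 20041 and 17962 in spermatids. The groups overlapped, with the lowest value in spermatocyte library 4, and the log2 fold change of 0.29 ± 0.19 (SE) was not called (adjusted p = 0.20). Ndufv1, which binds the NADH, had a log2 fold change of -0.10.

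Ndufa13 and Ndufa5 had the highest positive values of the complex and were not called. Ndufa13, also known as GRIM-19, had 2995 to 4057 normalized counts in spermatocytes and 4666 to 6218 in spermatids, with no overlap. Its log2 fold change was 0.70 ± 0.17 (SE; adjusted p = 0.0025), under the fold threshold. Tssk6, a spermatid kinase gene on the opposite strand, overlaps Ndufa13, and the strand setting of the counting is not given in the sources used here. Ndufa5, a supernumerary subunit, had a log2 fold change of 0.69 ± 0.17 (SE; adjusted p = 0.0033).

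The 30 members of complex I that were not called ran from -0.85 (Ndufv3, a small subunit of the NADH-binding module) to 0.70. Ndufa4, which was named for complex I and is now counted with complex IV, had 232 to 604 normalized counts in spermatocytes and 219 to 609 in spermatids, with overlapping groups and a log2 fold change of -0.26 ± 0.38 (SE). Its relative Ndufa4l2 had 254 to 722 in spermatocytes and 410 to 782 in spermatids, also overlapping (0.63 ± 0.32, SE). Ndufs5 had the lowest counts of the complex I members, not corrected for length, with 37.3 to 69.3 in spermatocytes and 25.0 to 40.5 in spermatids.

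The 3 members on the X chromosome were Ndufa1, Ndufb11 and Cox7b, and none was called. Their log2 fold changes were 0.32, 0.64 and 0.26. Among 831 X-linked models tested, 66.8% were called higher in spermatids and the median was 2.71. Ndufb11 was called higher, at 1.09, when spermatocyte libraries 3 and 4 were left out.

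In complex II, succinate dehydrogenase, both subunits of the membrane anchor fell and neither subunit of the catalytic dimer was called, although Sdha was under 3 alternatives given below. Sdhd, the small anchor subunit (chr9:50596338-50603849), had 4919, 4133, 3461 and 5393 normalized counts in spermatocytes and 1623, 1358, 937 and 957 in spermatids, without overlap. Its log2 fold change was -1.90 ± 0.22 (SE; adjusted p = 8.7e-06). Sdhc, the large anchor subunit (chr1:171127166-171150605), had 4509, 4251, 4338 and 6254 in spermatocytes and 1938, 1768, 1432 and 1306 in spermatids. Its groups were also apart, with spermatocyte library 4 the highest, and the log2 fold change was -1.58 ± 0.19 (SE; adjusted p = 1.2e-05).

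Sdha, the flavoprotein that oxidizes succinate, had 14031, 13808, 12841 and 14884 normalized counts in spermatocytes and 7883, 8349, 7797 and 7824 in spermatids. The groups did not overlap, but the log2 fold change of -0.80 ± 0.14 (SE; adjusted p = 0.00029) was under the fold threshold. Sdha was called lower with equal totals (-1.24), with quantile scaling (-1.34) and with a correction for GC content (-1.03). Sdhb, the iron-sulfur subunit, had 5029, 4539, 3991 and 5072 in spermatocytes and 4530, 4732, 4981 and 4164 in spermatids. Its groups overlapped, and the log2 fold change was -0.01 ± 0.16 (SE; adjusted p = 0.94). The difference in change between the anchor and catalytic subunits was not tested.

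Complex III, the cytochrome bc1 complex, had 2 of 8 members lower (25.0%) and a median of -0.47. The shares lower were 29.8% over all models and 21.1% over models with a symbol. Of its 2 core proteins only Uqcrc2 was called, and the difference between them was not tested. Uqcrc2 (chr7:120635189-120659523) had 12668, 12703, 11404 and 14799 normalized counts in spermatocytes and 4564, 4527, 3998 and 3915 in spermatids, far apart, with a log2 fold change of -1.60 ± 0.16 (SE; adjusted p = 1.7e-06). Uqcrc1, its partner core protein, had 18107, 16663, 13206 and 21959 in spermatocytes and 14377, 18661, 17907 and 16452 in spermatids, which overlap throughout, and a log2 fold change of -0.04 ± 0.19 (SE). Uqcrc2 is overlapped by Pdzd9 on the opposite strand.

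Uqcrfs1, the Rieske iron-sulfur protein that carries electrons within the complex, had 5938, 5596, 4231 and 4930 normalized counts in spermatocytes and 7671, 7971, 7350 and 6923 in spermatids. It was higher in every spermatid library, but its log2 fold change of 0.54 ± 0.16 (SE; adjusted p = 0.0098) was under the fold threshold. Uqcrb, a small ubiquinone-binding subunit, had 1827, 2305, 2254 and 700 in spermatocytes and 553, 841, 818 and 792 in spermatids. Spermatocyte library 4 lay within the spermatid range. Uqcrb is overlapped by Gm10767 on the opposite strand. Its log2 fold change of -1.11 ± 0.34 (SE; adjusted p = 0.011) was not called with TMM scaling (-0.98), nor without spermatocyte library 2 (-0.94), spermatocyte library 3 (-0.95) or spermatid library 1 (-0.97).

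The other 4 small subunits of complex III were not called. Uqcr11 had 474 to 700 normalized counts in spermatocytes and 290 to 349 in spermatids, without overlap, and its log2 fold change of -0.92 ± 0.21 (SE; adjusted p = 0.0015) was under the fold threshold. Uqcrh, the hinge protein, was at -0.63 with groups apart, Uqcrq at -0.32 and Uqcr10 at -0.16, both overlapping.

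**Figure D2:**
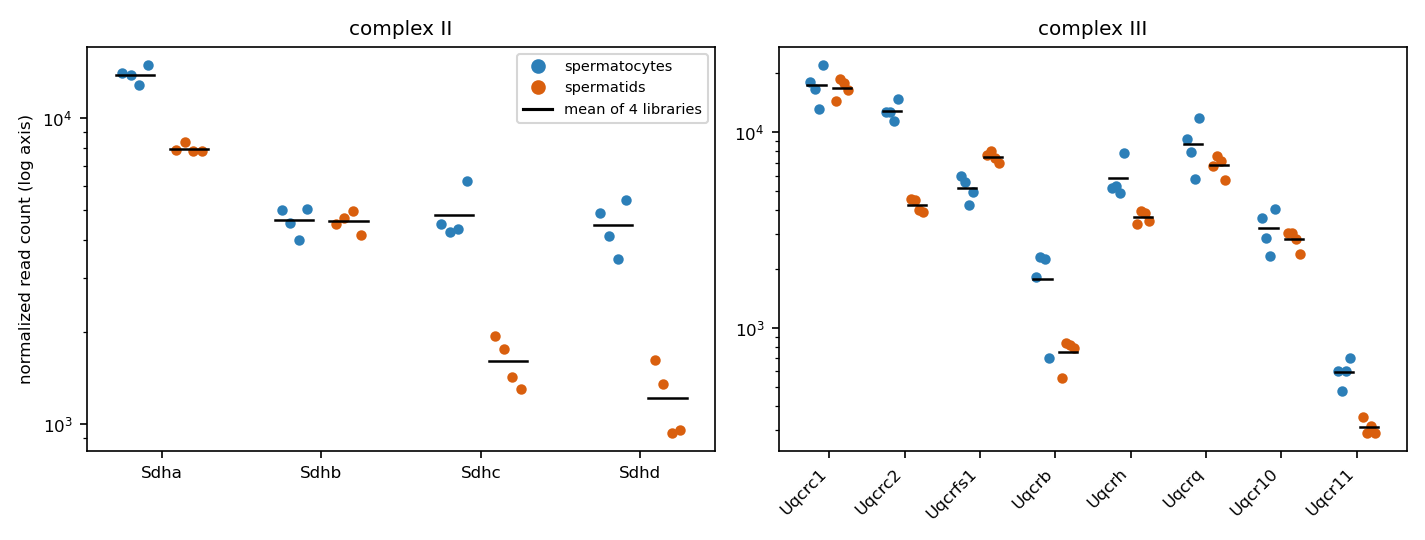
Normalized read counts (log axis) of the complex II and complex III members in each library; points are the 4 libraries of each group and bars their mean. Sdhc, Sdhd and Uqcrc2 are lower in every spermatid library, and Sdhb and Uqcrc1 overlap.

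Cytochrome c, the small heme protein between complexes III and IV, was almost entirely of the germ cell form by RNA in both cell types. Cyct (chr2:76353943-76360449) had 8728, 9283, 10666 and 5528 normalized counts in spermatocytes and 2887, 3967, 3495 and 3959 in spermatids. All spermatid libraries were below all spermatocyte libraries, and the log2 fold change was -1.23 ± 0.22 (SE; adjusted p = 0.00025). Cycs, the form of other tissues (chr6:50562563-50566546), had 282, 328, 1143 and 74.2 in spermatocytes and 344, 231, 269 and 264 in spermatids. The spermatocyte libraries spanned both sides of the spermatids, with the highest value in library 3, which was also highest in Sertoli cell markers, and the log2 fold change was -0.12 ± 0.61 (SE).

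Per kilobase of exon, Cyct made up 98.0% to 99.7% of the cytochrome c RNA in spermatocytes and 97.8% to 98.9% in spermatids. The log2 ratio of Cyct to Cycs counts was lower by 1.11 in spermatids, with overlapping groups, and an exact two-sided permutation test over the 8 libraries gave p = 0.114. It was 1 of 10 pairs of related genes compared in this way. Not all were a restricted and a broad form, since Cox7a2l with Cox7a2 and Atp5g1 and Atp5g2 with Atp5g3 were among them. No pair passed the Benjamini-Hochberg adjustment over the 10, where the smallest adjusted p was 0.095, and the smallest p that 4 against 4 libraries allow is 0.0286.

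Complex IV, cytochrome c oxidase, had 15 tested members, of which 1 was lower and 1 higher (6.67% each), both at very low counts. Over all models 29.8% were lower and 32.5% higher. The median log2 fold change of complex IV was -0.21. None of the 10 broadly expressed supernumerary subunits was called. Cox7c, a small subunit, had 403 to 684 normalized counts in spermatocytes and 724 to 832 in spermatids, without overlap. Its log2 fold change of 0.75 ± 0.21 (SE; adjusted p = 0.0075) was under the fold threshold.

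The germ cell forms of complex IV outweighed their broad counterparts in both groups. Cox8c (chr12:102899306-102900534), the germ cell form of subunit 8, had 60385, 68567, 51973 and 55592 normalized counts in spermatocytes and 23821, 37650, 32997 and 28463 in spermatids. The groups were apart and the log2 fold change was -0.96 ± 0.18 (SE; adjusted p = 0.00047), just short of the fold threshold. With equal totals it was called, at -1.39, with quantile scaling at -1.44 and with a correction for GC content at -1.17. It was also called without spermatocyte library 3 (-1.02), without spermatid library 2 (-1.06), and without spermatocyte libraries 3 and 4 (-1.09). Per kilobase of exon its level was 129103 normalized counts in spermatocytes and 67102 in spermatids, and 98.8% to 99.6% of the RNA of Cox8c and Cox8a together. Cox8a, the broad form, had 322 to 586 in spermatocytes and 329 to 407 in spermatids and a log2 fold change of -0.23 ± 0.25 (SE).

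Cox6b2, the germ cell form of subunit 6B (chr7:4751794-4753094), had 21803, 19840, 17860 and 28428 normalized counts in spermatocytes and 17655, 19361, 21172 and 17187 in spermatids. The groups overlapped, with a log2 fold change of -0.21 ± 0.18 (SE). Cox6b1 had 647 to 1001 in spermatocytes and 927 to 1242 in spermatids. Per kilobase of exon Cox6b2 was 90.1% to 95.1% of the pair in the 8 libraries.

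Cox7b2, the germ cell form of subunit 7B, had 15043, 14660, 12380 and 4528 normalized counts in spermatocytes and 7735, 9540, 8622 and 7776 in spermatids. Spermatocyte library 4 lay below every spermatid library and the other 3 above, and the log2 fold change was -0.33 ± 0.33 (SE). With a correction for GC content it was called lower, at -1.52. Cox7b, the X-linked broad form, had 55.0 to 112 in spermatocytes and 78.5 to 135 in spermatids, and Cox7b2 was 99.2% to 99.8% of the pair per kilobase.

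**Figure D3:**
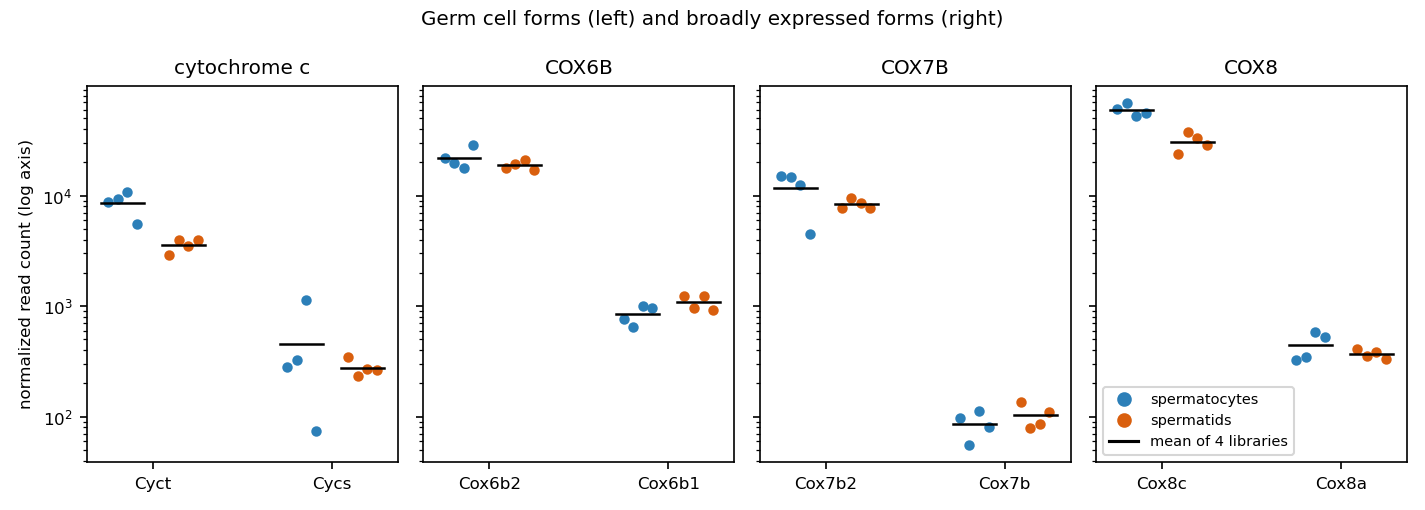
Normalized read counts (log axis) of 4 germ cell forms and their broadly expressed counterparts in each library; points are libraries and bars the mean of 4. Each germ cell form lies above its counterpart in every library, and Cyct and Cox8c are lower in every spermatid library than in any spermatocyte library.

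Cox7a2, the broad form of subunit 7A, had 8096 to 16776 normalized counts in spermatocytes and 10410 to 12339 in spermatids, with a log2 fold change of 0.00 ± 0.21 (SE). Cox7a2l, its relative found in supercomplexes of complexes III and IV, had 3974 to 7874 in spermatocytes and 4613 to 5673 in spermatids (-0.16 ± 0.21, SE). Cox5a and Cox5b, which encode separate nuclear subunits, were at 0.33 and -0.33, and Cox6c was at -0.45.

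Forms known from heart and skeletal muscle were near the detection limit. Cox6a2 had 1.61, 3.93, 2.24 and 7.99 normalized counts in spermatocytes and 16.1, 39.2, 31.5 and 38.1 in spermatids, a log2 fold change of 2.80 ± 0.48 (SE; adjusted p = 0.00019). It is overlapped on the opposite strand by Itgad, and its broad form Cox6a1 had 4542 to 8797. Cox7a1 had 19.3, 9.81, 45.8 and 24.0 in spermatocytes and 10.7, 2.80, 7.51 and 8.71 in spermatids. Its groups overlapped, the log2 fold change was -1.53 ± 0.52 (SE; adjusted p = 0.019), and it was not called without spermatocyte library 3 (-1.18), the one with the most Sertoli cell markers, without spermatocyte libraries 3 and 4 (-0.93), without spermatid library 2 (-1.19) or, barely short of the threshold, with a pseudocount of 8.

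In the ATP synthase, 2 of 17 members were lower (11.8%) and 1 higher (5.88%), beside 29.8% and 32.5% of all models. Its median was -0.22. Of the 5 subunits of its F1 head and central stalk none was called. Atp5b, the catalytic beta subunit, had the highest mean count of the complex, not corrected for length. Its normalized counts were 49615, 44357, 38936 and 50747 in spermatocytes and 47962, 53854, 54314 and 48565 in spermatids. The groups overlapped, with a log2 fold change of 0.16 ± 0.16 (SE; adjusted p = 0.37). Atp5a1, the alpha subunit, had 23508 to 30907 in spermatocytes and 12214 to 13812 in spermatids. Its groups were apart, and its log2 fold change of -0.98 ± 0.16 (SE; adjusted p = 0.00011) was just short of the fold threshold. It was called with equal totals (-1.41) and with quantile scaling (-1.55), and without spermatocyte library 1 (-1.01) or spermatocyte library 2 (-1.02) and, barely past the threshold, without spermatid library 2.

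The small membrane subunits, which sit where the synthase forms dimers, moved in different directions. Atp5l, subunit g (chr9:44913250-44920742), had 83.0, 80.5, 130 and 55.9 normalized counts in spermatocytes and 477, 434, 350 and 338 in spermatids. Every spermatid library was above every spermatocyte library, and the log2 fold change was 2.23 ± 0.29 (SE; adjusted p = 1.9e-05). An antisense gene, Gm30934, overlaps it. Atp5k, subunit e (chr5:108433254-108434388), had 2730, 1880, 2033 and 2608 in spermatocytes and 1197, 1011, 839 and 879 in spermatids. It was lower in every spermatid library, with a log2 fold change of -1.23 ± 0.20 (SE; adjusted p = 0.00011). Atp5j2, subunit f, was not called (-0.67), but was with equal totals (-1.10) and with quantile scaling (-1.05).

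The ring of c subunits is encoded by 3 genes whose mature protein is the same. Atp5g3 (chr2:73908449-73911303) had 2506, 2301, 3170 and 2268 normalized counts in spermatocytes and 1694, 771, 751 and 907 in spermatids. The groups were apart, and the log2 fold change was -1.39 ± 0.26 (SE; adjusted p = 0.00039). Atp5g1 had 459 to 724 in spermatocytes and 774 to 973 in spermatids, a log2 fold change of 0.53 ± 0.20 (SE), which was not called. Atp5g2 had 91.3 to 225 in spermatocytes and 144 to 362 in spermatids, also not called. The log2 ratio of Atp5g1 to Atp5g3 was higher by 1.91 in spermatids and that of Atp5g2 to Atp5g3 by 1.85. In both the groups did not overlap, and the exact two-sided permutation p was 0.0286, the smallest possible here, with an adjusted p of 0.095. Per kilobase of exon Atp5g1 went from 7.68% to 11.4% of the sum of Atp5g1 and Atp5g3 in spermatocytes to 20.3% to 34.3% in spermatids. These shares depend on the length used: per kilobase of transcript they were 2.79% to 4.26% and 8.10% to 15.3%.

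None of the 4 peripheral stalk members was called, and their log2 fold changes ran from -0.59 (Atp5o, which joins the stalk to the F1 head) to 0.31 (Atp5j, coupling factor 6). Atp5f1, subunit b of the stalk, had 3364, 3543, 3901 and 1446 normalized counts in spermatocytes and 2776 to 3075 in spermatids, so that 1 spermatocyte library, library 4, lay below the spermatids and 3 above. Atp5sl and Atp5s, relatives named for the synthase and now called Dmac2 and Dmac2l, were at -0.53 and 0.62 and not called.

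The symbol pattern does not catch every subunit. Of 8 listed subunit and partner genes outside it, 3 were higher (37.5%) and 1 lower (12.5%), beside the 32.5% and 29.8% of all models given above. Cox4i2 passed the filter only through its spermatid libraries and so had to differ, and without it 2 of 7 were higher and 1 lower. Usmg5, which encodes the synthase subunit DAPIT, had 124 to 169 normalized counts in spermatocytes and 817 to 1003 in spermatids, a log2 fold change of 2.63 ± 0.20 (SE; adjusted p = 2.5e-07). 2010107E04Rik, which encodes a small proteolipid of the synthase, had 591 to 742 and 3789 to 4777, a log2 fold change of 2.62 ± 0.17 (SE). Cox4i2, a hypoxia-responsive form of complex IV subunit 4, had 0 to 3.35 in spermatocytes and 33.0 to 50.1 in spermatids. Ndufab1, the acyl carrier subunit of complex I, was lower (-1.06 ± 0.33, SE). It was not called with TMM scaling (-0.93), a pseudocount of 8 (-0.99) or edgeR (-0.97), nor without spermatocyte library 1 (-0.99) or without spermatid library 2 (-0.81). Cox4i1 (-0.99) and Cyc1 (-0.96), the broad subunit 4 and cytochrome c1, just missed the fold threshold. Both were called with equal totals (-1.43 and -1.40) and with quantile scaling (-1.54 and -1.29), and Cox4i1 with edgeR (-1.03). Cox4i1 was also called without spermatocyte library 2 (-1.04) or 3 (-1.14) and without spermatid library 2 (-1.04) or 3 (-1.02), and Cyc1 without spermatocyte library 2 (-1.09) or spermatid library 1 (-1.20).

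A list of 17 held genes that feed electrons to the chain by other routes, nucleotide carriers, regulators of the synthase and some related genes. Of these 5 were higher and 5 lower (29.4% each), near the shares over all models. Without spermatocyte libraries 3 and 4, 2 of the 17 were lower, where the share over all models was 29.4%. Gpd2, the mitochondrial glycerol 3-phosphate dehydrogenase of the glycerol phosphate shuttle, had 2322, 1729, 2113 and 2504 normalized counts in spermatocytes and 54384, 56201, 73914 and 66966 in spermatids. Its log2 fold change was 4.86 ± 0.18 (SE; adjusted p = 1.0e-09). Sqrdl, the sulfide:quinone oxidoreductase now named Sqor, had 1442, 1413, 1462 and 1183 in spermatocytes and 37683, 46246, 53185 and 49702 in spermatids, a log2 fold change of 5.08 ± 0.17 (SE; adjusted p = 9.5e-10). Etfb, a subunit of the electron transfer flavoprotein, had 102 to 153 and 2426 to 3014, a log2 fold change of 4.36 ± 0.20 (SE). Its partner Etfa was not called (0.32 ± 0.44, SE). The other 2 called higher were Hccs, which attaches heme to cytochromes c (1.97 ± 0.39, SE), and Aox1, an aldehyde oxidase (1.06 ± 0.23, SE).

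The 3 ADP/ATP carriers were called lower in spermatids. Slc25a4, the heart and muscle carrier, had 386, 449, 1194 and 787 normalized counts in spermatocytes and 167, 136, 167 and 143 in spermatids (log2 fold change -2.05 ± 0.33, SE). Slc25a5, the carrier of many tissues, had 247, 313, 711 and 470 in spermatocytes and 112 to 212 in spermatids (-1.40 ± 0.34, SE). Both were highest in spermatocyte library 3, which has the most Sertoli cell markers, and Slc25a5 was not called without libraries 3 and 4 (-0.88). Slc25a31, the germ cell carrier, had 2283 to 3644 in spermatocytes and 1085 to 1918 in spermatids (-1.15 ± 0.22, SE; adjusted p = 0.00049).

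The other 2 called lower, Ucp2 and Dhodh, lost the call when single libraries were left out. Ucp2, an uncoupling protein relative, had 442, 511, 1374 and 932 normalized counts in spermatocytes and 515, 170, 324 and 322 in spermatids. Its groups overlapped, and it was highest in spermatocyte library 3. The log2 fold change of -1.24 ± 0.40 (SE; adjusted p = 0.014) was not called without spermatocyte library 3 (-0.94), without spermatid library 2 (-0.96) or without spermatocyte libraries 3 and 4 (-0.62). Dhodh, an enzyme of pyrimidine synthesis that passes electrons to ubiquinone, had 127, 131, 262 and 259 in spermatocytes and 109, 67.3, 94.6 and 80.5 in spermatids. Its groups did not overlap, with spermatocyte libraries 3 and 4 the highest, and the log2 fold change was -1.07 ± 0.33 (SE; adjusted p = 0.011). It was not called with TMM scaling (-0.94), with a correction for GC content (-0.96), without spermatocyte library 3 (-0.90), spermatocyte library 4 (-0.91) or spermatid library 2 (-0.95), or without spermatocyte libraries 3 and 4 (-0.57).

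**Figure D4:**
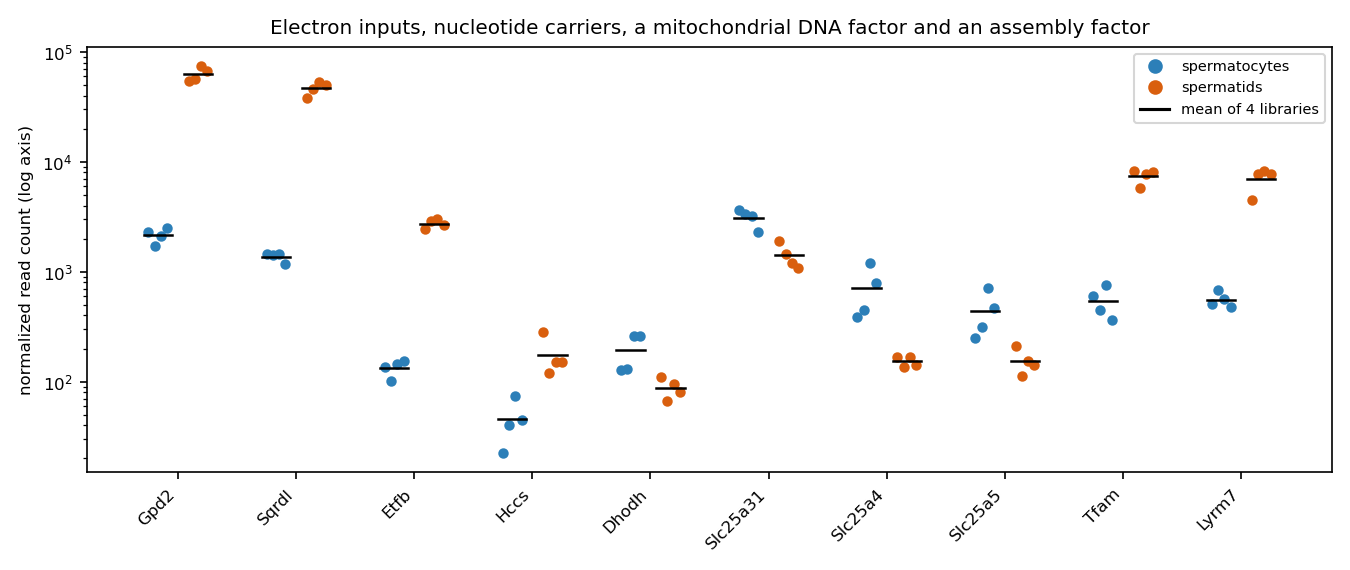
Normalized read counts (log axis) of electron inputs, Hccs, nucleotide carriers, Tfam and Lyrm7 in each library; points are libraries and bars the mean of 4. Gpd2 and Sqrdl rise from at most 2504 in spermatocytes to at least 37683 in spermatids, while the 3 nucleotide carriers are lower.

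Among assembly factors, the proteins that build the complexes, 16 of 45 were lower (35.6%) and 6 higher (13.3%), beside 29.8% and 32.5% of all models, with a median log2 fold change of -0.41. Lyrm7, which hands the Rieske protein Uqcrfs1 to complex III, had 511, 682, 566 and 475 normalized counts in spermatocytes and 4515, 7671, 8296 and 7680 in spermatids. Its log2 fold change was 3.63 ± 0.22 (SE; adjusted p = 3.1e-08). Nubpl, an iron-sulfur protein of complex I assembly, had 29.0 to 61.5 and 385 to 431 (3.35 ± 0.29, SE). Atpaf1, a chaperone of the F1 head, and Ecsit, a complex I assembly factor, were also higher, as were Cmc1 and Uqcc. Among the lower genes Sdhaf1, which serves the iron-sulfur subunit of complex II, had a log2 fold change of -1.94 ± 0.23 (SE) and Cox10, an enzyme of heme A synthesis, of -1.85 ± 0.18 (SE).

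Of 16 regulators of mitochondrial biogenesis, 3 were higher (18.8%) and 1 lower (6.25%), beside 32.5% and 29.8% of all models. Without spermatocyte libraries 3 and 4 these counts were 5 and 2 of the 16, where the shares over all models were 32.7% and 29.4%. Tfam, which packages and transcribes mitochondrial DNA, had 600, 450, 753 and 361 normalized counts in spermatocytes and 8199, 5774, 7706 and 8038 in spermatids, a log2 fold change of 3.82 ± 0.24 (SE; adjusted p = 3.5e-08). In mouse testis a Tfam isoform without the mitochondrial presequence is known, and the table sums isoforms. Tfb1m, the methyltransferase of mitochondrial ribosomal RNA, rose by 2.36 ± 0.19 (SE) and Ppargc1b, a coactivator, by 2.85 ± 0.37 (SE). Peo1, the mitochondrial helicase now named Twnk, was lower (-1.31 ± 0.30, SE). Nrf1 and Gabpa, the factors of the NRF1 and ETS letters above, were not called, at 0.51 and -0.54.

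The subunits encoded in mitochondrial DNA carry no symbol in the table, and models over them were sought by coordinates on mm10. No model overlapped mt-Co2, mt-Atp6 or mt-Atp8, and only 24% of mt-Co3 was covered, so these subunits were not measured in full. The model over mt-Co1 had 817343, 1207979, 1405782 and 324145 normalized counts in spermatocytes and 476395, 306600, 335967 and 373914 in spermatids. Spermatocyte library 4 lay within the spermatid range and the other 3 above it. The log2 fold change was -1.15 ± 0.38 (SE; adjusted p = 0.016), and it was not called with quantile scaling (-0.76), without spermatocyte library 2 (-0.97) or without spermatocyte library 3 (-0.89). The models over mt-Nd5, mt-Nd6 and mt-Cytb and over mt-Nd5 and mt-Nd6 were called lower at -1.02 and -1.09, with adjusted p of 0.040 and 0.047, and lost the call under most of the alternatives that leave out a library. The models over mt-Nd1 (-0.78), over mt-Nd2 (-0.76) and over mt-Nd4l and mt-Nd4 (-0.90) were not called. Neither was a model over mt-Nd3 with few counts (-4.00 ± 1.73, SE; adjusted p = 0.059). All mitochondrial models took 2.48%, 3.95%, 5.82% and 0.946% of reads in the spermatocyte libraries and 0.706% to 1.51% in the spermatid libraries.

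Mitochondrial ribosomal protein genes, which serve the translation of those subunits, were given as a point of reference. Of 75 tested, 20 were lower (26.7%) and 4 higher (5.33%), beside 29.8% and 32.5% of all models. Over models with a symbol the shares were 21.1% and 35.6%. The median log2 fold change was -0.51 against -0.28 for the respiratory members. With equal totals 36 of the 75 genes were lower, where the share over all models was 37.4%. With quantile scaling 34 of the 75 were lower, where it was 35.9%.

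**Figure D5:**
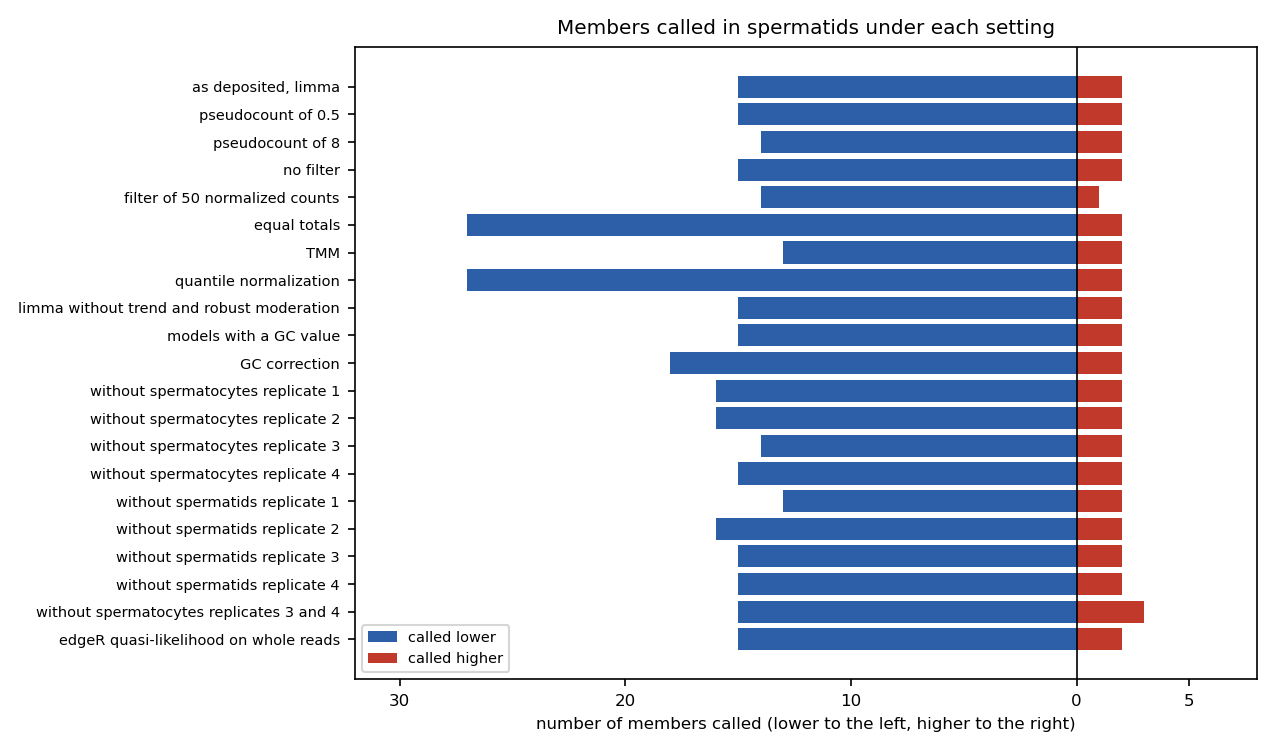
Number of members called lower (to the left) and higher (to the right) in spermatids under each setting of the analysis. Counts of lower members run from 13 to 27, with 27 under equal totals and under quantile scaling; 1 to 3 members were called higher. Over all models, 21.1% to 37.4% were called lower and 24.4% to 35.5% higher under these settings.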

How the data were processed

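The deposited table gives one value per gene model and library, a signal that the authors made by dividing read counts by a size factor; DESeq is named as the normalization in the table's own name. Coordinates are on mm10, per the file headers. Per the submitters' processing notes, STAR 2.4.0, SAMtools, Picard and FastQC were also used. Which program counted the reads, and with what strand setting, is not given in the sources used here, so overlapping, antisense and near-identical genes may share reads. Another annotated gene overlaps 29 of the members, and 22 members have such a gene on the opposite strand. Not all of these are named above. Whole reads could be recovered, since 100% of the nonzero values in every library were whole multiples of the value of a single read, to within 10% of that value. A floor of 3 reads was 2.42 to 4.50 normalized counts and covers counting error only. Another 8 columns with values of samples not analysed here were left out.

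Models that reached 10 normalized counts in 4 or more libraries entered the test, run with limma 3.58.1 (R 4.3.3, trend and robust moderation) on log2(value + 1), which understates changes of low genes; adjusted p-values are Benjamini-Hochberg over all models tested. edgeR 4.0.16 on recovered reads called 9210 models higher and 8734 lower (the quasi-likelihood test), against 9333 and 8563. The scripts were checked on simulated data. Members and lists were chosen with earlier results of these data known. Genes of the fixed pairs were named, as were the 2 largest called rises and falls and the member with the highest mean count of each complex. The 2 largest called rises and falls of each list were also named. Other members were named after their values were seen. Of 175 list genes, 157 matched, 11 through a synonym. Per-kilobase levels use exon lengths of GENCODE vM21. Replicates were numbered in accession order. Protein sequences were not used here. The values of 1 member are not reported here, though it is in all counts.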

Additional observations from a re-analysis of the deposited data

Results flagged for a closer look

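In 13 of 132 groups of 4 libraries checked, 1 library lay far from the other 3, and chance alone flags about 1 in 20 groups. In spermatocyte library 4, Cox6a1 was at 8797 normalized counts against 5282 to 5736 in the others, Sdhc at 6254 against 4251 to 4509, Ndufs8 at 1773 against 1412 to 1451 and Ndufa11 at 2477 against 1644 to 1733. In spermatocyte library 1, Cox7c was at 684 against 403 to 435. In spermatid library 1, Atp5g3 was at 1694 against 751 to 907, Uqcrb at 553 against 792 to 841, Lyrm7 at 4515 against 7671 to 8296, Ndufb11 at 339 against 223 to 243 and Cyc1 at 998 against 488 to 547. In spermatid library 2, Sdha was at 8349 against 7797 to 7883. In spermatid library 4, Cox7c was at 724 against 828 to 832 and Atp5j2 at 1895 against 2234 to 2293.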

How the results depend on the processing

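No paired analysis was possible because the labels carry no replicate numbers. No named gene that was called changed direction under any alternative run. With equal totals or quantile scaling 27 members were lower, with medians of -0.72 in both, and the median of all models was -0.44 and -0.35. With edgeR 2 members were higher and 15 lower, the same 15 genes, beside 32.1% and 30.4% of all models. With a filter of 50 normalized counts 1 member was higher, beside 34.0% of all models. Leaving out 1 library gave 2 members higher, 13 to 16 lower and medians of -0.34 to -0.22. Over all models 31.7% to 32.6% were then higher and 29.0% to 30.2% lower. The number of models tested also changed with the setting. A correction for GC content called 5904 of 17974 models higher (32.8%) and 4507 lower (25.1%), against 32.5% and 29.8% of 28735 above. No filter gave 14333 of 49037 lower (29.2%), and a filter of 50 gave 5470 of 21208 (25.8%). Models with a GC value, without that correction, gave 3792 of 17974 lower (21.1%). Of the 16 biogenesis regulators, 5 were higher without spermatocyte libraries 3 and 4, where the share over all models was 32.7%. Lower among them were 4 with equal totals, 3 with quantile scaling, 4 with GC correction, 3 with edgeR, 2 without spermatocyte libraries 3 and 4, and 1 to 3 with 1 library left out. Of the list of electron inputs, carriers and related genes, 2 were lower without spermatocyte libraries 3 and 4 and 3 to 5 with 1 left out. Of the 8 subunits outside the pattern, 3 were lower with equal totals and with quantile scaling, 0 with a pseudocount of 8 or TMM, and 0 to 3 with 1 library left out. The share of all models called lower was 37.4% with equal totals, 35.9% with quantile scaling and 25.1% with GC correction. It was 30.4% with edgeR, 28.7% with a pseudocount of 8, 27.8% with TMM and 29.4% without spermatocyte libraries 3 and 4. The cause of the changes in these counts was not tested. A p that misses the threshold does not show equal levels, and the 4 libraries a group limit what small changes can be seen.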
